A study of Mus musculus with 163 samples.

Results

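Fully grown oocytes (FGOs) obtained from cultured embryonic gonads were compared with FGOs taken from the ovary. All 24 gonad-derived FGOs and all 20 in vivo FGOs of the count table were used, that is 44 of the 163 single oocytes of the series, and the comparison ran across all genes. The gonad-derived oocytes began as primordial germ cells of gonads of mouse embryos at E12.5 (E for embryonic day). These gonads were dissociated, all their cells were re-aggregated with retinoic acid into reconstituted ovaries (rOvaries), and the rOvaries were differentiated on membranes (in vitro differentiation, IVD), a step whose medium held fulvestrant, an oestrogen receptor antagonist, for some days in the protocol that was followed. Follicles were then dissected out and grown in culture (in vitro growth, IVG) with follicle-stimulating hormone, with BMP15 and GDF9 at the start, and with a collagenase step. No culture step before isolation is stated for the in vivo FGOs. No transgene or reporter is stated for either group. Oocytes of both groups were freed of follicular somatic cells and of the zona pellucida and lysed singly with ERCC spike-in RNA. The methods name outbred Swiss Webster embryos as the source of the gonads whose somatic cells went into the iPSC-derived rOvaries of the series (iPSCs, induced pluripotent stem cells). For the gonad-derived FGOs the strain, for the in vivo FGOs the strain and the age of the females, and for both the number of animals or cultures are not stated separately in the sources used here, so differentiation in culture, growth in culture and any difference of strain cannot be told apart. Both IVD and IVG lie between the groups. No animal or culture is named behind an oocyte, so each group counted as 1 sample, no test was made, and no p-value is given.

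An oocyte grows inside its follicle while it transcribes and stores the messenger RNAs and proteins that carry the egg through meiosis and the first cleavages. Granulosa cells around it pass metabolites through gap junctions, and the oocyte in turn secretes growth factors such as GDF9 and BMP15. By the end of growth transcription falls silent, so the RNA of an FGO is largely a store laid down earlier.

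Levels are CPM, counts scaled to a library of 1000000 reads. A pooled level is the sum of a group's counts over the sum of its libraries, with an exact Poisson 95% interval. Such intervals cover counting error only, since the reads carry no molecular identifiers and copies of 1 molecule may be counted several times. Ratios are log2 values of gonad-derived over in vivo pooled levels after 0.5 CPM was added to each, which understates the change of low genes. Genes entered where more than 1 CPM was reached in at least 3 of the 92 FGOs of the series, which held for 13582 of 21950 genes. Totals ran from 2.17 to 8.15 M counts (1 M is 1000000) in gonad-derived and from 6.44 to 8.79 M in in vivo FGOs, with medians of 7.04 and 7.16 M. Of 14 oocyte markers 13 were found in the table, 0 of them were at 0 throughout a group, and their summed level ran from 19918 to 41627 CPM in gonad-derived and from 34148 to 58077 CPM in in vivo FGOs. Some libraries stood apart. Gonad-derived FGO 19 had a median correlation of 0.886 with the other oocytes of its group, against a median of 0.974 over all pairs of that group. In vivo FGO 7 had medians of 0.9674 with gonad-derived growing oocytes (GROs), 0.9672 with in vivo GROs and 0.945 with in vivo FGOs. FGOs grown from follicles of 6 dpp mice (days post partum) were the best match of 8 of the 24 gonad-derived FGOs. Their margins over their own group were small, from 0.9739 against 0.9737 in oocyte 23 to 0.889 against 0.886 in oocyte 19. The study left out gonad-derived FGO 15 and in vivo FGOs 5, 7, 16, 19 and 22 by their size, and results are given with and without these 6 oocytes where it matters. The numbers of the oocytes come from the labels, which do not say what they stand for.

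Most transcripts lay close to each other. Of the 13582 genes, 94.6% were within 2-fold, the median ratio was -0.01, and the pooled levels had a Pearson correlation of 0.983 across genes, which are not independent replicates. By the size rule of 4-fold, 43 genes were higher in gonad-derived FGOs (0.317% of the genes tested) and 30 were lower (0.221%), together 0.537%. At 2-fold, 284 genes (2.09%) were higher and 447 (3.29%) were lower. Without the 6 oocytes left out by size, 50 of 13420 genes (0.373%) were higher and 17 (0.127%) were lower, with 40 of the 43 and 13 of the 30 genes past 4-fold again. Some of these calls rested on a few oocytes. Only 16 of the 43 higher and 15 of the 30 lower genes were also 4-fold apart in the medians over oocytes, and 30 and 17 of them stayed past 4-fold whichever single oocyte was left out. Leaving out in vivo FGO 19 alone brought the lower count to 22. The counts and their balance also moved with the measure. There were 13 higher and 6 lower genes with 2 CPM added in place of 0.5 CPM, 97 and 108 with 0.1 CPM, 162 and 169 by the edgeR coefficients of the 4 FGO groups, 18 and 41 by medians over oocytes, and 26 and 23 with a minimum of 5 pooled CPM.

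**Figure D1:**
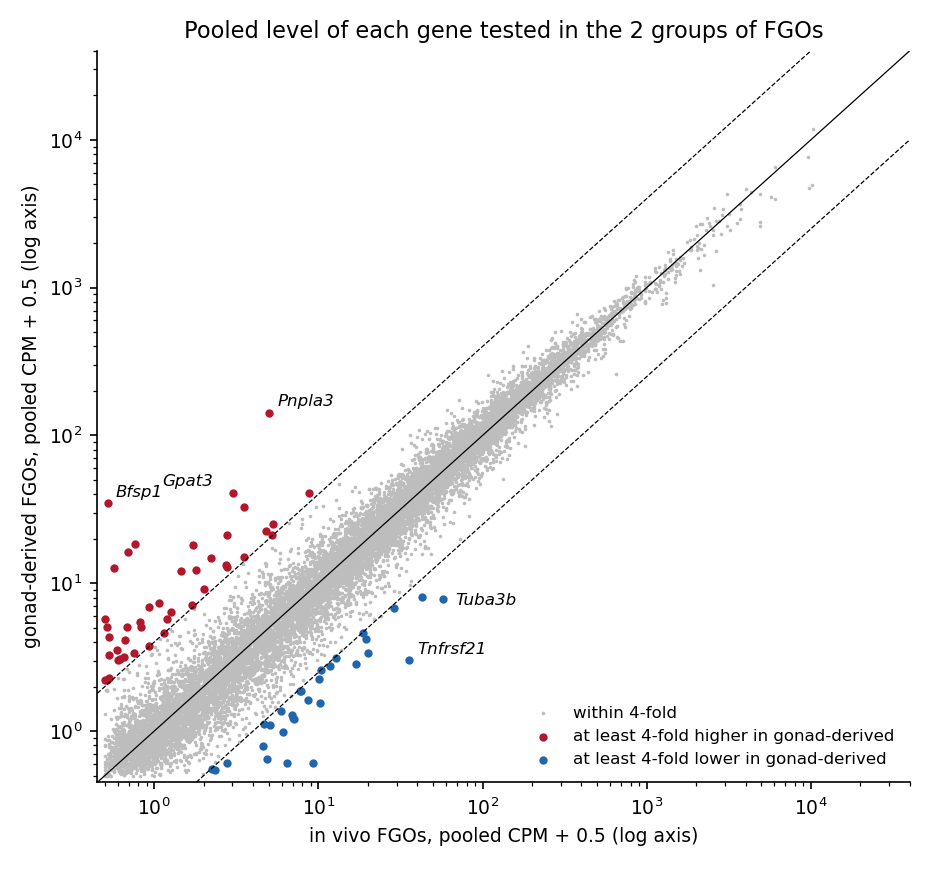
Pooled level of each of the 13582 genes tested in in vivo FGOs (horizontal axis, CPM + 0.5, log scale) and gonad-derived FGOs (vertical axis, same scale). The solid line marks equal levels and the dashed lines 4-fold, with 43 genes above the upper and 30 below the lower line.

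The sequences that follow are promoters of 4 genes on which the results turn. Bfsp1, Pnpla3 and Gpat3 were high in some gonad-derived FGOs and low in all others, and Tnfrsf21 had the largest lower ratio among genes that met the naming rule below. Each run holds 250 bases before and 50 after the first start site listed by RefSeq in GRCm38.p6, written 5′ to 3′ on the gene's strand. For Bfsp1, Pnpla3 and Gpat3 this start site lies inside the span of the gene. Capitals mark matches to any of 4 motifs, searched on both strands, and adjoining matches may overlap. The E-box was searched as CACGTG, which 7.24% of all 27025 promoters of this length in the table hold. The homeodomain core was searched as TAATTA, held by 5.31% of them. The TATA box was searched as TATAAA, held by 14.2%. The GC box was searched as GGGCGG, held by 35.9%. Among the 10681 of 13582 genes tested that have a promoter listed, these shares were 9.76%, 3.21%, 8.36% and 58.7%, in the same order.

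Bfsp1, chr2:143863124-143863423, minus strand: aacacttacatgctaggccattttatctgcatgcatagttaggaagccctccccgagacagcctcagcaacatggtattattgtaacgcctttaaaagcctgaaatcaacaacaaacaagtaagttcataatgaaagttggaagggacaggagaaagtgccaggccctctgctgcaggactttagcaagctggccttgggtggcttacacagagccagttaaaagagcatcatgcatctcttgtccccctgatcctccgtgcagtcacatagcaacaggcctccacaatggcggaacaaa
Pnpla3, chr15:84167566-84167865, plus strand: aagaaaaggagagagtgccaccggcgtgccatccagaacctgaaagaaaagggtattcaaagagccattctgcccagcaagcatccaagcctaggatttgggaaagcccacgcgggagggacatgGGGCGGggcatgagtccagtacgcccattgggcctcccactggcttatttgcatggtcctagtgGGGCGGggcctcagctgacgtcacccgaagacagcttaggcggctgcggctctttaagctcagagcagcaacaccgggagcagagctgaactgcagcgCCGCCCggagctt
Gpat3, chr5:100845979-100846278, plus strand: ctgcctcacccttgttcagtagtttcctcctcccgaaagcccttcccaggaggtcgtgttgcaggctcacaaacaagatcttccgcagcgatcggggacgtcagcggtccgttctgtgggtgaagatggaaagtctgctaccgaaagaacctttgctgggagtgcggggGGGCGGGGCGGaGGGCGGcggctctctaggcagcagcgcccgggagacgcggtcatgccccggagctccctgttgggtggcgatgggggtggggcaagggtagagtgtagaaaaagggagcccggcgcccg
Tnfrsf21, chr17:43016305-43016604, plus strand: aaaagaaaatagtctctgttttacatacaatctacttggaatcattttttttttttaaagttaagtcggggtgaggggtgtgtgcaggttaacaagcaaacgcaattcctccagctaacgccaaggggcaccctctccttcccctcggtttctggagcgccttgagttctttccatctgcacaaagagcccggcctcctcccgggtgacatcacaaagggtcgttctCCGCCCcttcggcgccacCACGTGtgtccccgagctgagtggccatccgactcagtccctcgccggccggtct

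The Bfsp1 window held none of these letters. The windows of Pnpla3 and Gpat3 each held 3 GC boxes, of which 2 at Gpat3 overlap, and that of Tnfrsf21 held 1 GC box and 1 E-box. No share of motifs over the called genes is given, because only 34 of the 43 higher genes have an entry in the table of promoters, which voids such a check.

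The largest ratios belonged to genes that were silent or low in most gonad-derived FGOs and high in a few. To find such genes, the oocytes of a group were ordered by CPM + 0.5, and a gene was called on-off where 2 neighbours in that order differed by at least 4-fold with at least 3 oocytes on each side. In gonad-derived FGOs 20 genes met this rule (0.147%), and in in vivo FGOs 0 did. In gonad-derived GROs 23 genes were on-off, and in in vivo GROs 1 was. The iPSC-derived GROs, iPSC-derived FGOs and 6 dpp FGOs had 3 each. Of the 20 genes, 11 were among the 43 higher genes and 0 among the 30 lower ones.

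Bfsp1, which encodes filensin, a beaded-filament protein known from the lens, had the widest gap. It lay between 88.7 and 245 CPM in gonad-derived FGOs 10, 17, 18, 21 and 22, at or below 0.290 CPM in the other 19, and at or below 0.271 CPM in every in vivo FGO. The 5 high oocytes thus stood clear of all others, and no in vivo FGO came near them. Pooled levels were 34.4 CPM (33.5 to 35.3) against 0.0207 CPM (0.00427 to 0.0605). The in vivo value rests on 3 reads, and the ratio of pooled levels was 1663 with a counting interval of 569 to 8067.

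Pnpla3, which encodes a lipase of lipid droplets, lay between 561 and 1005 CPM in gonad-derived FGOs 10, 17, 18, 19 and 22 and between 1.84 and 6.19 CPM in the other 19. In vivo FGOs lay between 3.27 and 6.58 CPM. The low gonad-derived oocytes therefore overlapped the in vivo ones, and the pooled levels of 142 and 4.51 CPM (ratio 4.83) describe few oocytes of the former group. Medians were 4.57 and 4.29 CPM.

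Gpat3 encodes a glycerol-3-phosphate acyltransferase that starts the synthesis of triglycerides. It lay between 168 and 205 CPM in oocytes 17, 18, 20, 22 and 23, at or below 29.0 CPM in the rest of the group, and between 0.258 and 6.60 CPM in in vivo FGOs (ratio 3.76). Alyref2, a copy of an mRNA export adaptor gene, lay between 90.0 and 148 CPM in oocytes 17, 18, 22 and 23 and at or below 19.3 CPM in the others, against 5.03 to 12.4 CPM in vivo (ratio 1.68). Trim15, an E3 ubiquitin ligase gene of the tripartite-motif family, lay between 133 and 199 CPM in oocytes 10, 17, 18, 20, 21 and 22 and at or below 29.2 CPM in the others, which overlaps the 20.8 to 37.6 CPM of in vivo FGOs (ratio 0.80). These 5 genes were named for the widest gaps among on-off genes of at least 20 pooled CPM, and the ratio of the last 2 stayed below 4-fold.

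The other 15 on-off genes had lower pooled levels or narrower gaps. Slc39a8, which encodes a zinc and manganese importer, lay between 18.5 and 322 CPM in oocytes 17, 18 and 22 and at or below 0.298 CPM in the other 21. Gsto2, which encodes a glutathione transferase, lay between 24.3 and 87.5 CPM in oocytes 17 to 23 and at or below 0.669 CPM elsewhere, while in vivo FGOs reached 0.927 CPM. Mamdc2 was high in the same 7 oocytes, at 26.8 to 33.9 CPM. Thrsp, a gene tied to lipid synthesis in liver and fat, lay between 12.8 and 24.0 CPM in oocytes 10, 17, 18, 21, 22 and 23, at or below 0.134 CPM in the rest, and rested on 2 reads in vivo (ratio of pooled levels 333, counting interval 92.0 to 2758). Cst9, a cystatin gene, was high in oocytes 10, 17, 18, 21 and 22 and had 0 reads in vivo, which makes its pooled level at least 82.7-fold higher when set against a floor of 3 reads over the group. The median over gonad-derived FGOs of Slc39a8, Thrsp and Cst9 was 0 CPM.

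The high oocytes were largely the same ones. For 19 of the 20 genes every high oocyte lay among gonad-derived FGOs 10 and 17 to 23, 8 of the 24. The exception was Smoc1, which encodes a secreted calcium-binding protein and was high in oocytes 1, 15 and 23. Each of oocytes 17, 18 and 22 had 19 of the 20 genes on, and for every gene fewer oocytes were on than off. Oocyte 22 was one of the 2 shallowest libraries, and without it and the other shallow library, oocyte 5, 23 genes were on-off. Without oocyte 19, which stood apart in the correlations, 22 were. The labels tie no oocyte number to a culture, plate or day, so whether oocytes 17 to 23 share one could not be checked and was not tested. The summed level of theca and stroma markers, with a median of 5.13 CPM over the group, was 70.3 CPM in oocyte 18, 11.6 CPM in oocyte 17 and 2.06 CPM in oocyte 22, the 3 oocytes with 19 genes on. In the other 5 of the 8 oocytes it was 11.1 CPM (oocyte 21) and between 4.90 and 6.46 CPM (oocytes 10, 19, 20 and 23).

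**Figure D2:**
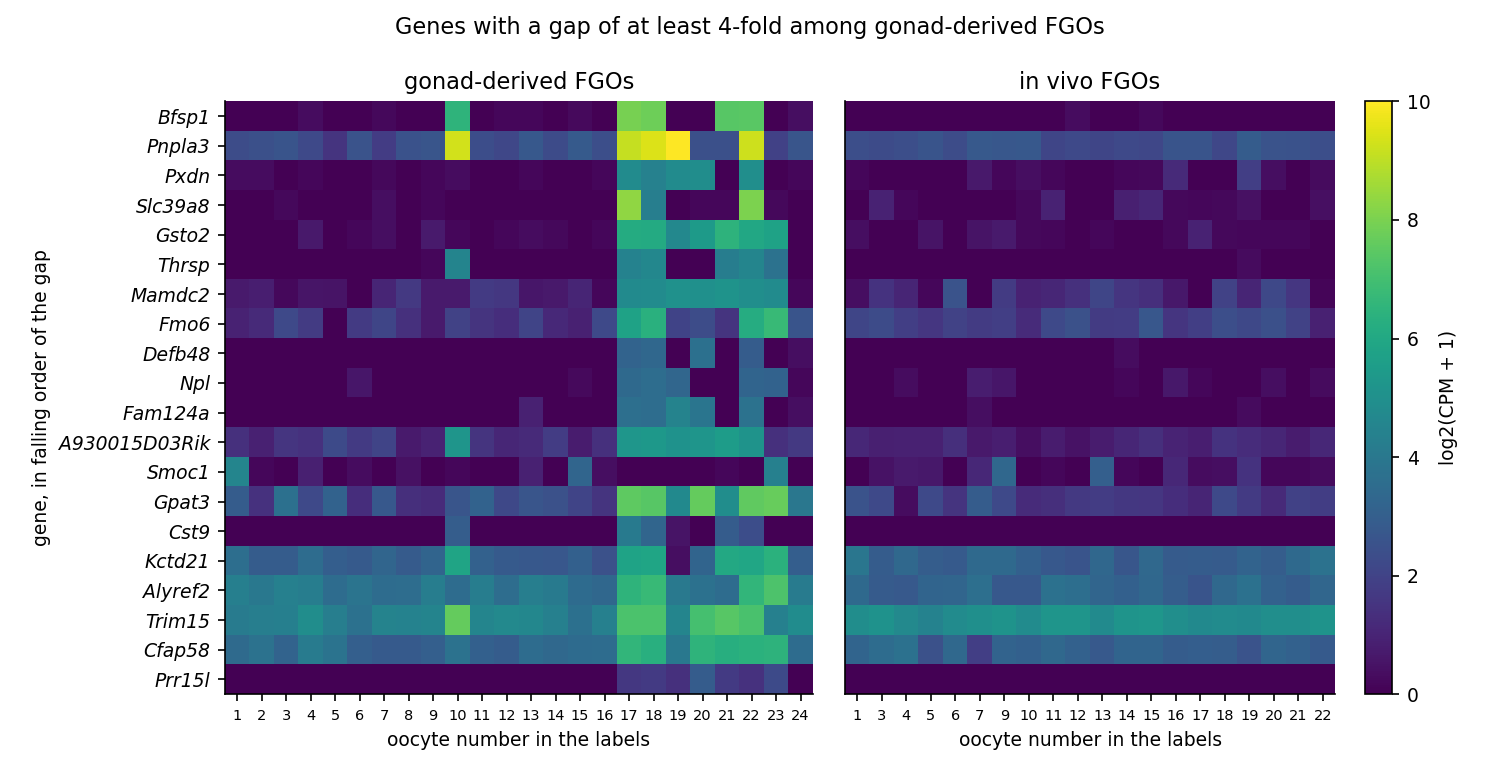
Level, as log2(CPM + 1) by colour, of the 20 on-off genes (rows) in each gonad-derived FGO (left) and in vivo FGO (right), by the number of the oocyte in the labels. For 19 genes the bright cells lie in gonad-derived FGOs 10 and 17 to 23, and for 19 genes no in vivo FGO was on.

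The state of the on-off genes was then compared in pairs. With on defined as above the middle of a gene's gap on the log scale, Kctd21 and Thrsp on chromosome 7, whose starts lie 0.0806 Mb apart, were in the same state in 24 of 24 gonad-derived FGOs, and Cfap58 and Gsto2 on chromosome 19, 0.0723 Mb apart, in 23 of 24. Alyref2 and Fmo6 on chromosome 1, 8.59 Mb apart, agreed in 24 of 24. Over the 8 pairs on 1 chromosome within 20 Mb of each other the share of oocytes in the same state had a median of 95.8% (95.8% to 100.0%). Over the 3 pairs farther apart on 1 chromosome the median was the same (66.7% to 100.0%), and over the 179 pairs on different chromosomes it had a median of 87.5% with a range of 58.3% to 100.0%. The same threshold was then applied to gonad-derived GROs, an earlier stage of the same culture protocol and a separate set of 24 oocytes. There the 8 near pairs were in the same state in a median of 91.7% of oocytes (58.3% to 100.0%), the 3 pairs farther apart in 70.8% (37.5% to 70.8%), and the 179 pairs on different chromosomes in 54.2% (25.0% to 91.7%). Kctd21 with Thrsp, Cfap58 with Gsto2 and Alyref2 with Fmo6 each agreed in 24 of 24 GROs, and Bfsp1 with Cst9, 5.01 Mb apart on chromosome 2, in 14 of 24. Pairs share oocytes and genes, so these shares are a description.

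The same thresholds were applied to the other groups. Of the 20 genes, 16 were on in at least 12 of the 24 gonad-derived GROs, 19 had 0 in vivo FGOs on, 18 had 0 in vivo GROs on, and 18 had 0 of the 6 dpp FGOs on. In FGOs derived from iPSCs (1 line) 6 genes were on in all 24 oocytes, 8 in none, and 6 in some. Bfsp1 lay between 129 and 492 CPM and Pnpla3 between 321 and 805 CPM in all 24 iPSC-derived FGOs. Gsto2 and Slc39a8 stayed at or below 0.487 and 2.17 CPM there. Among gonad-derived GROs, Pnpla3 was on in 16 of 24 and Bfsp1 in 8 of 24.

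Genes that were higher across the group rather than in a few oocytes were found by a naming rule. It asked for a pooled level of 5 CPM or more on the higher side and for 4-fold in the pooled levels, in the medians, with any single oocyte left out and without the 6 oocytes left out by size. It was met by 9 higher genes, of which 8 are described here (Krt79, Ptgds, Slc16a5, Foxn4, Stc2, Tuba1a, Cbx7 and Tmem51), and by 8 lower genes (Tnfrsf21, Tuba3b, Slc16a12, Ccdc42, C130074G19Rik, Gm7271, Cd200 and Tspan8).

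**Figure D3:**
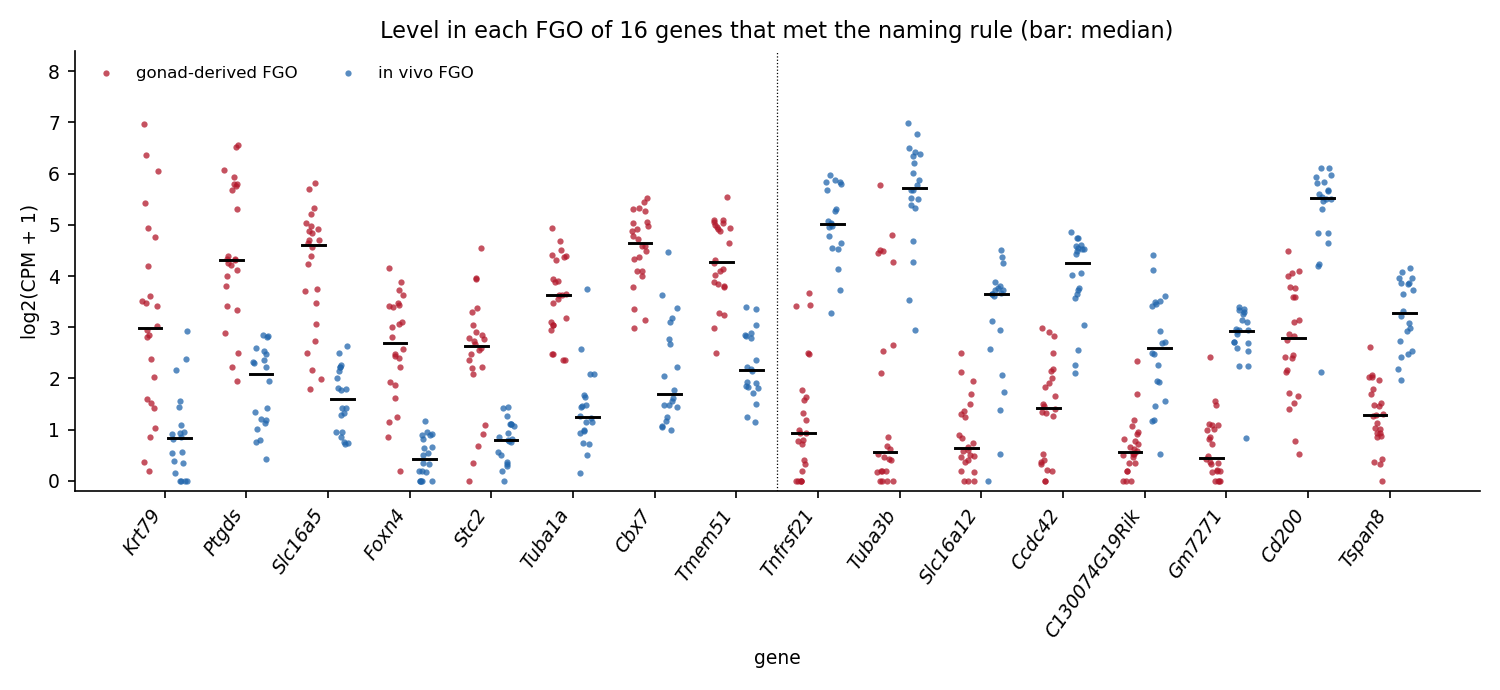
Level of 16 genes that met the naming rule in each gonad-derived FGO (red) and in vivo FGO (blue), as log2(CPM + 1), with bars at the medians. The 8 genes to the left of the dotted line had higher medians in gonad-derived FGOs and the 8 to its right had lower ones, and single oocytes of the groups overlapped for each of the 16.

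Slc16a5, a member of the monocarboxylate transporter family, lay between 2.45 and 55.4 CPM in gonad-derived FGOs with a median of 23.3, and between 0.655 and 5.23 CPM in in vivo FGOs with a median of 2.05 (ratio 2.94). Of the 24 gonad-derived oocytes, 20 lay above the highest in vivo one. Ptgds, which encodes prostaglandin D2 synthase, lay between 2.88 and 93.4 CPM (median 19.0) and between 0.352 and 6.16 CPM (median 3.28), with a ratio of 3.23 and 21 of 24 oocytes above the in vivo range. Stc2, which encodes the secreted glycoprotein stanniocalcin 2, lay between 0 and 22.5 CPM (median 5.21) and between 0 and 1.73 CPM (median 0.750), with a ratio of 2.32.

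Foxn4 encodes a forkhead transcription factor known from the development of organs other than the ovary. It lay between 0.150 and 16.7 CPM (median 5.50) in gonad-derived FGOs and, in vivo, between 0 and 1.24 CPM (median 0.342), with a ratio of 2.89. Of the 24 gonad-derived oocytes, 21 had more Foxn4 than every in vivo one.

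Cbx7 encodes a chromodomain subunit of Polycomb repressive complex 1, which binds methylated histone H3 and helps keep genes silent. It lay between 6.90 and 44.9 CPM (median 24.2) in gonad-derived FGOs and between 0.991 and 21.1 CPM (median 2.25) in in vivo FGOs. The highest in vivo value was that of in vivo FGO 19, one of the oocytes left out by size, and the ratio of 2.24 was 2.99 without those oocytes. Tuba1a, an alpha-tubulin gene with near-identical copies whose level is therefore uncertain, lay between 4.17 and 29.7 CPM (median 11.4) and between 0.114 and 12.4 CPM (median 1.38), again with in vivo FGO 19 at the top (ratio 2.28). Krt79, a keratin gene, ranged most widely, from 0.144 to 124 CPM (median 6.92) against 0 to 6.60 CPM (median 0.791), with a ratio of 3.39. Tmem51, a gene of a membrane protein, lay between 4.66 and 45.7 CPM (median 18.5) and between 1.21 and 9.51 CPM (median 3.49), with a ratio of 2.24.

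Trim29 and Fermt3, which did not meet this rule, were high in FGOs 1 and 3 alone within the gonad-derived group. Trim29 reached 224 CPM and Fermt3 112 CPM in oocyte 1, and their ratios of 4.48 and 2.79 were 2.11 and 1.12 without it. Only 2 oocytes lay above the in vivo range for either gene. Arhgef15, a gene of a guanine nucleotide exchange factor, had 0 reads in vivo and up to 32.6 CPM in gonad-derived FGOs, 15 of which had none (at least 254-fold higher pooled, against 3 reads over the group).

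Among the named lower genes, Tnfrsf21 had the largest ratio. It encodes death receptor 6 of the tumour necrosis factor receptor family, and lay between 0 and 11.8 CPM (median 0.913) in gonad-derived FGOs and between 8.64 and 61.5 CPM (median 31.5) in in vivo FGOs. Of the 24 gonad-derived oocytes, 21 lay below the lowest in vivo one, and the ratio was -3.56 with all oocytes and -3.61 without those left out by size. Cd200, which encodes a surface glycoprotein that dampens immune cells, lay between 0.431 and 21.6 CPM (median 5.91) and between 3.37 and 68.4 CPM (median 45.0), with a ratio of -2.40. Tspan8, a tetraspanin gene, lay between 0 and 5.15 CPM (median 1.43) and between 2.93 and 16.8 CPM (median 8.65), with 20 of 24 oocytes below the in vivo range and a ratio of -2.17. Slc16a12, another member of the monocarboxylate transporter family, lay between 0 and 4.68 CPM (median 0.551) and between 0 and 21.7 CPM (median 11.6), with a ratio of -2.72. The 2 members of that family among the named genes thus stood on opposite sides.

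Tuba3b, an alpha-tubulin gene whose level is uncertain for the same reason as that of Tuba1a, lay between 0 and 53.6 CPM in gonad-derived and between 6.75 and 126 CPM in in vivo FGOs. The medians were 0.483 and 52.0 CPM, and 18 of the 24 gonad-derived oocytes lay below the in vivo range, but single oocytes reached in vivo levels. The ratio of pooled levels was -2.88. Ccdc42, a coiled-coil gene known from sperm, lay between 0 and 6.92 CPM (median 1.69) and between 3.32 and 28.1 CPM (median 18.2), with a ratio of -2.57. The unnamed genes C130074G19Rik and Gm7271 had ratios of -2.51 and -2.44, with medians of 0.484 and 0.370 CPM in gonad-derived and of 5.05 and 6.63 CPM in in vivo FGOs.

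For 18 of the 30 lower genes the highest in vivo value was that of oocyte 5, 7, 16, 19 or 22, the ones left out by size. No share over all genes tested is given beside this count, so it is a description only. Prss23, a serine protease gene, reached 127 CPM in in vivo FGO 19 and 12.6 CPM in the next oocyte, and its ratio of -3.94 became -1.08 without the oocytes left out by size. Xbp1, a transcription factor gene of the unfolded protein response, went from -2.41 to -1.39, and Thbs1, which encodes the matrix protein thrombospondin 1, went from -2.08 to 0.21. The summed level of the 13 of 15 granulosa markers found in the table ran from 267 to 390 CPM in gonad-derived and from 275 to 604 CPM in in vivo FGOs, and 0 of the 13 were at 0 throughout in either group. In vivo FGOs 19 (604 CPM) and 16 (551 CPM) stood highest, and the other 18, with 5, 7 and 22 among them, lay at or below 352 CPM. Serpine2 and Cyp19a1 made up most of this sum, with pooled levels of 209.9 and 77.2 CPM in gonad-derived and of 199 and 64.1 CPM in in vivo FGOs, and their ratios of 0.08 and 0.27 were the only ones of the 13 above 0. The sum therefore says little of the other 11 genes. Their highest in vivo value lay in FGO 16 for Inhba, Inhbb, Hsd17b1 and Fst, in FGO 19 for Gja1 and Kitl, in FGO 7 for Nr5a2 and Gatm, and in FGOs 10, 4 and 13, which were not left out by size, for Amh, Amhr2 and Fshr. The gap junction gene Gja1 reached 294 CPM in in vivo FGO 19, and its ratio went from -1.82 to 0.28 without the oocytes left out by size. Over the 13 genes the median ratio was -0.70, and -0.27 without the oocytes left out by size. Cumulus markers summed to at most 3.66 and 7.55 CPM, with Ptx3 and Areg at 0 in both groups. Those of theca and stroma reached 70.3 CPM in gonad-derived FGO 18 and at most 11.6 CPM in the other oocytes of that group, and 41.4 CPM in in vivo FGO 16. Those of blood and endothelium ran from 111 to 236 and from 88.6 to 159 CPM, and those of the polar body and early embryo from 59.2 to 237 and from 80.4 to 214 CPM. Only 2 of the 10 blood and endothelium markers found were among the genes tested, Pecam1 (ratio 0.26) and Cd68 (ratio 0.71). The blood and endothelium sum therefore says little of the others. The part of other cell types in the lower calls was not tested beyond leaving out these oocytes.

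A stricter description asks whether every gonad-derived FGO lay on the same side of every in vivo FGO. This held above for 5 genes (0.0368%) and below for 19 genes (0.14%), which are named here after their values were seen. Above lay Tmc8, Gm28979, Gm20187, Rhof and Ammecr1l, of which only Tmc8, a transmembrane channel-like gene, was also past 4-fold (1.05 to 11.9 against 0 to 0.890 CPM, ratio 2.62). Rhof, a small GTPase gene of actin filopodia, lay between 60.4 and 147 CPM (median 96.5) in gonad-derived and between 22.1 and 49.1 CPM (median 35.8) in in vivo FGOs, with a ratio of 1.47.

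Below lay 3 NLRP genes, Nlrp4b, Nlrp9b and Nlrp9c, which are oocyte genes with close copies on chromosome 7, so that their counts are uncertain. Nlrp4b lay between 599 and 958 CPM (median 799) in gonad-derived and between 1065 and 1648 CPM (median 1224) in in vivo FGOs, with a ratio of -0.68. Nlrp9b had 171 to 551 against 581 to 881 CPM, and Nlrp9c had 244 to 419.9 against 431 to 656 CPM, with ratios of -0.67 and -0.66. The ranges stood apart with little room between them.

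The other 16 genes below included Ndc80, a subunit of the outer kinetochore that binds spindle microtubules, with 42.4 to 105 CPM (median 72.6) against 107 to 205 CPM (median 139) and a ratio of -0.99. Zfp345, a zinc finger gene with close copies, had 11.6 to 77.2 CPM (median 49.3) against 109 to 182 CPM (median 129) and a ratio of -1.39. Ssr4, a subunit of the translocon-associated complex of the endoplasmic reticulum (ER), had 3.59 to 27.7 against 30.6 to 58.4 CPM (ratio -1.20), and Srgn, the proteoglycan serglycin, had 20.5 to 72.7 against 78.3 to 123 CPM (ratio -1.06). Without the 6 oocytes left out by size, 43 genes (0.32%) lay wholly above and 44 (0.328%) wholly below. Among genes that stay tested, leaving oocytes out can only keep or add such genes, so this direction was fixed in advance.

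Gene lists were then read by their counts and medians, beside the 13582 genes with their median ratio of -0.01 (0.05 over the 13420 genes tested without the oocytes left out by size). The maternal genes of the subcortical maternal complex and the NLRP family, which the oocyte stores for the first cleavages, leaned lower. Of 16 genes tested, 14 had ratios below 0 and the median was -0.66, 3 were at least 2-fold lower against 3.29% of all genes, and 0 were 4-fold apart. Without the oocytes left out by size the median was -0.66 again.

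Nlrp5, which encodes the complex member MATER, lay between 676 and 1676 CPM (median 1062) in gonad-derived and between 1335 and 3602 CPM (median 2456) in in vivo FGOs, with a ratio of -1.28. Padi6, which encodes a protein of the cytoplasmic lattices, lay between 2287 and 6522 CPM (median 4670.0) and between 6223 and 12073 CPM (median 9696), with a ratio of -1.04. Nlrp14 had medians of 4909 and 9852 CPM and a ratio of -1.03. The ranges of Nlrp5 and Padi6 overlapped at their ends, as did those of Nlrp14 (2858 to 7297 and 6919 to 13147 CPM). Tle6, which encodes another member of the complex, had medians of 2476 and 4893 CPM (ratio -0.91). Ooep, a core member, had medians of 2987 and 3720.2 CPM (ratio -0.36), and Khdc3 was on the other side of 0, with medians of 997 and 736 CPM (ratio 0.37).

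The zona pellucida genes, whose proteins form the egg coat, leaned the same way. Of 12 genes of the zona and sperm binding, 10 had ratios below 0 and the median was -0.51 (-0.45 without the oocytes left out by size). Zp2 lay between 399 and 4302 CPM (median 2657) and between 2958 and 6849 CPM (median 4835), with a ratio of -0.82. Zp3 and Zp1 had ratios of -0.61 and -0.57. Over the 22 genes of oocyte identity the median was -0.31, and -0.13 without those oocytes. Among them, the secreted factors Bmp15 and Gdf9 had ratios of -0.46 and -0.31, the linker histone H1f8 of 0.10, and Zar1, an RNA-binding gene of the egg, of 0.47. The growth factors and receptors of the oocyte had a median of -0.02 over 22 genes, with 0 of them 2-fold apart.

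Genes of cholesterol synthesis and uptake leaned higher. Of 30 genes, 22 had ratios above 0, the median was 0.44 (0.48 without the oocytes left out by size), and 5 were at least 2-fold higher against 2.09% of all genes. Srebf2, which encodes the transcription factor that drives this pathway when sterols are low, lay between 4.95 and 25.4 CPM (median 15.1) in gonad-derived and between 3.25 and 10.9 CPM (median 5.09) in in vivo FGOs, with a ratio of 1.46. Srebf1, its relative of fatty acid synthesis, had medians of 251 and 106 CPM (ratio 1.24). Stard4, a sterol carrier gene, lay between 12.0 and 56.1 CPM (median 30.4) and between 6.10 and 15.0 CPM (median 10.0), with a ratio of 1.64. Msmo1, which encodes a sterol demethylating oxidase, had medians of 99.7 and 44.9 CPM (ratio 1.22). Abcg1, which exports sterols, had a ratio of -0.60. In 6 dpp FGOs, which share only IVG, the pooled levels of Srebf2 and Stard4 were 13.6 and 41.9 CPM, beside the 15.5 and 32.8 CPM of gonad-derived FGOs.

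Genes of heat shock and ER stress leaned lower, with 26 of 33 below 0, a median of -0.22 (-0.16 without the oocytes left out by size) and 4 at least 2-fold lower, against 3.29% of all genes. Hspa5, the main ER chaperone, lay between 129.9 and 417 CPM (median 248) and between 363 and 874 CPM (median 662), with a ratio of -1.32. Pdia3, an ER disulfide isomerase, had medians of 138 and 287 CPM (ratio -1.03). Without the oocytes left out by size their ratios were -1.35 and -0.94, and that of Xbp1 was -1.39.

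Polycomb genes had a median of 0.18 over 35 genes, with 24 above 0. Beside Cbx7, Cbx2, which encodes another chromodomain subunit of the same complex, was 2-fold higher, between 131 and 341 CPM (median 228) against 67.2 and 229 CPM (median 96.3), with a ratio of 1.01 that was 1.34 without the oocytes left out by size. Ezh2, the histone methyltransferase of the partner complex, had a ratio of 0.40. Per length (RPKM, the pooled CPM per kilobase of exon), Cbx2 at 58.7 and 29.1 was the more abundant of the 2 chromodomain genes in either group, with Cbx7 at 7.77 and 1.52.

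Glycolysis and pyruvate genes split. Their median was 0.07 over 31 genes, with 17 above and 14 below 0, and it was 0.20 without the oocytes left out by size. Slc16a5 stood at the top and Pdk2, a kinase that shuts pyruvate dehydrogenase, at the bottom with 0 to 2.82 CPM (median 0.212) against 1.10 to 8.09 CPM (median 2.39) and a ratio of -1.74. Ldha, the lactate dehydrogenase subunit, ranged from 0.134 to 76.7 and from 0.455 to 40.5 CPM, wide in both groups (ratio 1.31). The large housekeeping lists stayed near 0, with medians of -0.06 for the cytosolic ribosome, -0.02 for oxidative phosphorylation, -0.02 for the mitochondrial ribosome and 0.06 for the proteasome.

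**Figure D4:**
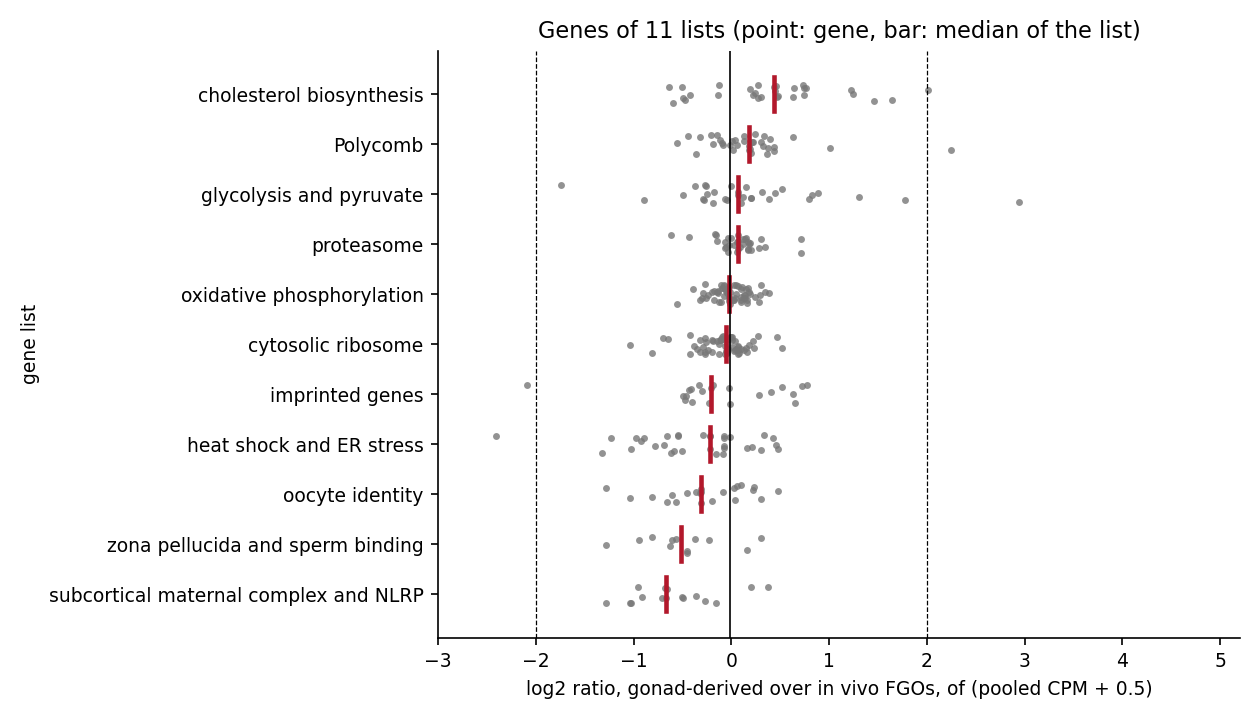
Ratio of each gene (point) in 11 of the 35 lists, on the log2 scale of pooled CPM + 0.5, with a bar at the median of the list. The solid line marks the median of all genes and the dashed lines 4-fold, and list medians run from -0.66 for the subcortical maternal complex and NLRP genes to 0.44 for cholesterol synthesis.

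Over the lists not named so far the medians ran from -0.21 for imprinted genes to 0.15 for Notch genes. Without the oocytes left out by size they ran from -0.07 for imprinted genes to 0.21 for DNA damage and cell death, a list at 0.06 with all oocytes, and Notch genes were at 0.20. Some of their members were past 4-fold. Nnat, an imprinted gene, reached 0.288 CPM in gonad-derived FGOs and 12.1 CPM in vivo (ratio -2.09), and Fos, an immediate early gene, reached 3.24 and 26.1 CPM (ratio -2.08). Alpl, the alkaline phosphatase of early germ cells, had medians of 3.08 and 17.7 CPM (ratio -2.01). Igsf21, an adhesion gene of synapses, had medians of 5.34 and 1.02 CPM (ratio 2.78). Crabp1, which binds retinoic acid in the cytoplasm, had medians of 0.967 and 0 CPM (ratio 2.11). Nnat, Fos, Alpl, Igsf21 and Crabp1 did not meet the naming rule above.

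An earlier stage was measured in other oocytes, and the GRO comparison shares no library with the FGO comparison. Most of the higher genes were already higher there. Of the 43 genes, 31 exceeded the in vivo GRO level by 2-fold or more in gonad-derived GROs (72.1%, against 4.29% of the 12916 genes tested at both stages), 22 by 4-fold or more, and the median GRO ratio was 2.55. Of the 30 lower genes 26 could be read at the GRO stage, 5 were at least 2-fold lower (19.2%, against 2.64%), and the median was -0.38. Across the 12916 genes the ratios of both stages had a Pearson correlation of 0.31 and a Spearman correlation of 0.20, over genes that are not independent replicates.

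Single genes differed in this respect. In GROs Stc2 stood at 11.0 CPM in the gonad-derived and 1.43 CPM in the in vivo group, in the same direction as in FGOs. Ptgds stood on the other side, with 3.93 and 7.47 CPM in GROs. Tnfrsf21 stood at 1.73 and 3.96 CPM, Cd200 at 1.59 and 2.92 CPM and Tuba3b at 2.56 and 4.40 CPM in GROs, all far below the in vivo FGO levels of 35.0, 42.3 and 57.1 CPM. For the NLRP and maternal complex list the median GRO ratio was -0.07. Srebf2 stood at 10.5 and 11.5 CPM in gonad-derived and in vivo GROs. Whether the ratios differ between stages was not tested.

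**Figure D5:**
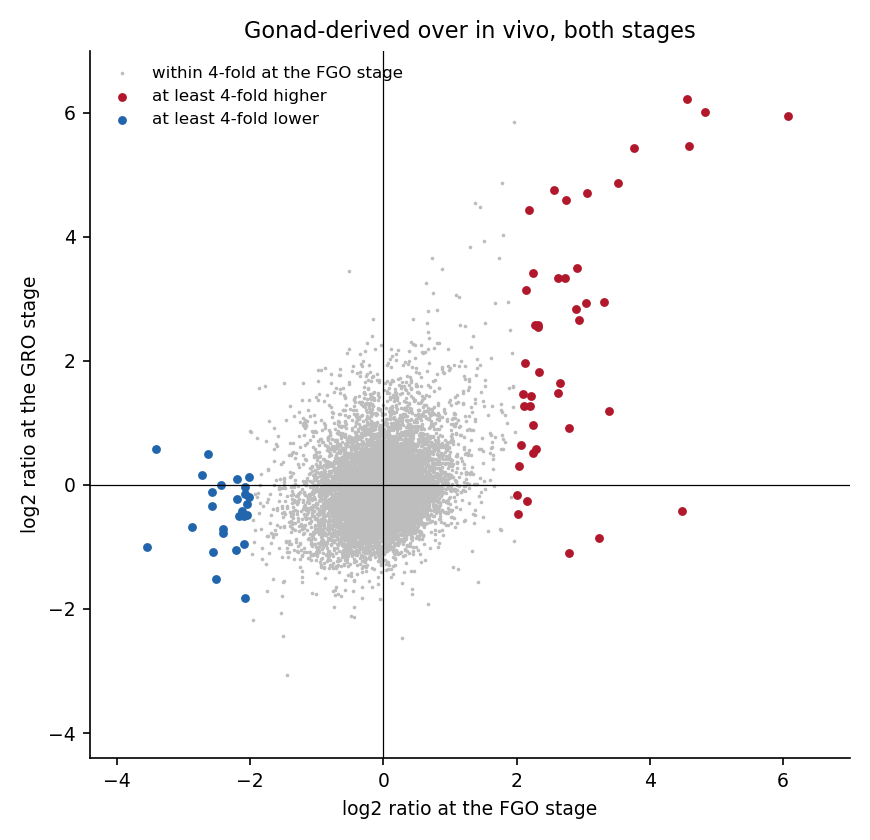
Ratio of gonad-derived over in vivo oocytes at the FGO stage (horizontal axis) and at the GRO stage (vertical axis), log2 of pooled CPM + 0.5, for 12916 genes. The 43 higher genes (red) had a median GRO ratio of 2.55 and the 26 lower genes that could be read (blue) one of -0.38.

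Levels in the 6 dpp FGOs, which passed through growth but not differentiation in culture, and in iPSC-derived FGOs are given side by side for single genes. Tnfrsf21 stood at 13.6 CPM in 6 dpp and 2.65 CPM in iPSC-derived FGOs, beside 2.51 CPM in the gonad-derived and 35.0 CPM in the in vivo group. Cbx7 stood at 13.2 and 6.93 CPM beside 24.6 and 4.82 CPM, and Slc16a5 at 3.66 and 3.10 CPM beside 20.8 and 2.28 CPM. Comparisons of these groups with the in vivo FGOs share that control, so no counts over genes are given.

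Genes that fall during growth were read with classes made from iPSC-derived oocytes, which neither group contains. The 470 genes that fell at least 4-fold from iPSC-derived GROs to FGOs had a median ratio of -0.65 between gonad-derived and in vivo FGOs, and 26.4% of them were at least 2-fold lower, against 3.29% of all genes, and 2.34% at least 2-fold higher. Without the oocytes left out by size these values were -0.08, 4.47% and 5.53%. In that setting they were 0.05, 2.02% and 3.29% over the 12964 genes that neither fell nor rose at least 4-fold. Deup1, a gene of centriole amplification, and Mapk11, a p38 kinase gene, were among the lower genes with higher levels in GROs, at 16.3 and 39.0 CPM pooled in gonad-derived GROs against 0.487 and 2.89 CPM in gonad-derived FGOs. Mapk11 reached 53.4 CPM in in vivo FGO 7 and 50.4 CPM in the next oocyte, with an in vivo median of 14.3 CPM. The 148 genes that rose at least 4-fold in growth had a median of 0.03, with 6.76% of them at least 2-fold higher, against 2.09% of all genes, and 5.41% at least 2-fold lower. Without the oocytes left out by size their median was on the other side of 0, at -0.14, with 4.73% at least 2-fold higher and 8.11% lower. Over the 12964 genes of neither class these shares were 3.29% and 2.02%.

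Spread between oocytes was wider in gonad-derived FGOs. The median SD of log2(CPM + 1) over genes was 0.411 there and 0.327 in in vivo FGOs, and 67.8% of genes had the larger SD in gonad-derived FGOs. Oocyte 19 carried much of this, since without it the median was 0.348 and the share 55.5%. Among the 2225 genes of at least 100 CPM the share was 81.2%, with all oocytes. Without the 6 oocytes left out by size, the share over the same 13582 genes was 83.7%.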

How the data were processed

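Single-oocyte RNA was amplified by Smart-seq2 and sequenced as single-end reads. As the study's methods and the labels state, the authors aligned reads with STAR to GRCm38/mm10 with the ERCC sequences, placed multimapping reads at random, and deposited raw counts per gene of uniquely mapped reads, taken with QuasR over the exons of 1 randomly chosen transcript per gene. Use of strand is not given in the sources used here. Reads that fit near-identical copies equally well are then not counted, which can lower the level of such genes, and reads from overlapping genes may be shared.

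The deposited counts were pooled per group in Python 3.11.15 (numpy 2.4.6, pandas 2.3.3, scipy 1.17.1, matplotlib 3.10.9), with a 0.5 CPM pseudocount, a 4-fold size rule and no test, and the procedure was tested on simulated data. Normalization alternatives used R 4.3.3 with edgeR 4.0.16 and DESeq2 1.42.0. Genes were named by the rule stated in the text, at most 12 in each direction, together with members past 4-fold and both ends of 35 gene lists, and the 5 on-off genes of at least 20 pooled CPM with the widest gaps. The genes whose oocytes were fully separated are named after their values were seen. The groups and lists, with 6 further marker lists, were chosen with earlier results of these data known. No 2 of the 44 libraries held identical values, and 43 gene IDs had no RefSeq symbol and are not named. Some genes that met these rules are not reported here.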

Additional observations from a re-analysis of the deposited data

How the results depend on the processing

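No paired analysis was possible because no result comes from a test, and the labels do not say what the oocyte numbers stand for. Scaling changed little, with 43 higher and 30 lower genes under TMM and 42 and 31 under DESeq2 size factors. With a pseudocount of 2 CPM there were 13 higher and 6 lower genes and 97.8% within 2-fold, and with 0.1 CPM 97, 108 and 90.1%. The edgeR coefficients of the 4 FGO groups gave 162, 169 and 88.3%. Medians over oocytes gave 18 higher and 41 lower genes and turned the sign of Mamdc2 (-0.37), 4921517D22Rik (-0.16), Pxdn (-0.0068) and Slc39a8 (-0.34). Without the oocytes left out by size there were 17 lower genes, 43 genes wholly above and 44 wholly below, a wider spread in gonad-derived FGOs for 84.1% of the 13420 genes that then passed the filter, and a ratio of 0.21 for Thbs1. Without the 2 shallowest gonad-derived FGOs that share was 66.9%. No filter on low values gave 96.1% within 2-fold. A minimum of 5 pooled CPM gave 26 higher genes, 95.5% within 2-fold and 3 genes wholly above. On-off genes numbered 31 with a gap of 3-fold and 13 with one of 6-fold. The settings for spread and on-off genes were chosen after seeing the data. Leaving out 1 oocyte at a time gave 40 to 46 higher and 22 to 35 lower genes, 5 to 10 wholly above, 19 to 29 wholly below (29 without in vivo FGO 18), 19 to 22 on-off genes, and a spread share of 55.5% (without gonad-derived FGO 19) to 71.7% (without in vivo FGO 7). Among genes that stay tested, counts wholly above or below can only stay or rise when oocytes are left out. The cause of the other changes was not tested. Depth limits genes near 0.0207 CPM, the level of 3 reads over all in vivo FGOs.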
